A study of Homo sapiens with 6 samples.

Results

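Broad stretches of open chromatin found in every library were described in CCRF-CEM, a human leukaemia cell line of T lymphoblasts. Peaks of the 6 deposited lists were merged into 32037 union regions on chromosomes 1 to 22 and X, wherever they overlapped by at least 1 bp. A region was taken when all 6 lists held a peak in it and its widest peak in the list coded WT4 was at least 1000 bp. There were 1566 such broad shared regions, 4.89% of the union (Wilson 95% interval 4.66 to 5.13%) and 14.1% of the 11070 regions that all 6 lists shared. The other 9504 shared regions serve as the comparison. The regions were chosen by their measured width in WT4, so that width is a description. The widths in the other lists are not independent of it, since all lists cover the same regions. No test was made of any of them.

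ATAC-seq finds DNA that a transposase can reach between nucleosomes. An accessible element usually gives a peak well under a kilobase around a nucleosome-free stretch. Peaks of a kilobase or more are known from strong promoters, from neighbouring elements whose signals run together, and from repeated sequence where reads pile up. The peak caller lists a summit for each local maximum, so a broad peak often has several.

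Libraries came from SLFN11-positive parent cells and from an SLFN11-knockout line made from them. SLFN11 is a protein that is recruited to stressed replication forks and sensitises cells to DNA-damaging drugs. Each genotype was exposed to DMSO, the solvent, or for 2 h or 4 h to camptothecin at 100 nM, a drug that locks topoisomerase I onto DNA. The design asks how chromatin accessibility responds to this replication stress with and without SLFN11. Neither genotype nor cell type was checked against expression, which was not used here. With 1 library per group no value has a replicate spread, and with 1 knockout line clone and genotype cannot be told apart. Intervals cover counting error only, and neighbouring regions are not independent.

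The lists are named by the codes in their peak identifiers, which are WT, WT2 and WT4 for parent cells and KO, KO_2 and KO_4 for knockout cells. Every file is recorded under a sample whose title carries a different code. By the recorded samples, WT2 is parent DMSO, WT4 is parent 2 h and WT is parent 4 h, while KO_2 is knockout DMSO, KO_4 is knockout 2 h and KO is knockout 4 h. By the codes in the titles, WT and KO are DMSO, WT2 and KO_2 are 2 h, and WT4 and KO_4 are 4 h. Treatment comparisons are given under both readings. The lists held between 18407 (WT) and 33916 (WT2) entries. Read totals were not used here and the depth of each library is unknown, so widths, summit numbers and fold enrichments can differ between lists through depth alone, and the part of depth was not tested. Genes and sequences of the regions were not located here because no gene annotation or genome of hg19, the build of the lists, was used.

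The regions were broadest in the parent lists WT4 and WT2 and narrowest in the parent list WT, with the knockout lists between. The median peak width was 679 bp in WT (95% interval of the median 662 to 695), 1106 bp in WT2 (1097 to 1117) and 1167 bp in WT4 (1154 to 1179). It was 821 bp in KO (803 to 841), 893 bp in KO_2 (875 to 912) and 792.5 bp in KO_4 (774 to 812). The quartiles were 484 and 880 bp in WT but 980 and 1280 bp in WT2, so the ranges between the quartiles of these parent lists did not overlap. A peak of at least 1000 bp was present at 1121 of the 1566 regions in WT2 (71.6%, 69.3 to 73.8%). The corresponding numbers were 518 in KO_2 (33.1%), 407 in KO (26.0%), 367 in KO_4 (23.4%) and 224 in WT (14.3%). These lists came in the same order at the other shared regions. There the shares with such a peak were 4.45% in WT2, 0.989% in KO_2, 0.737% in KO, 0.537% in KO_4 and 0.295% in WT.

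**Figure D1:**
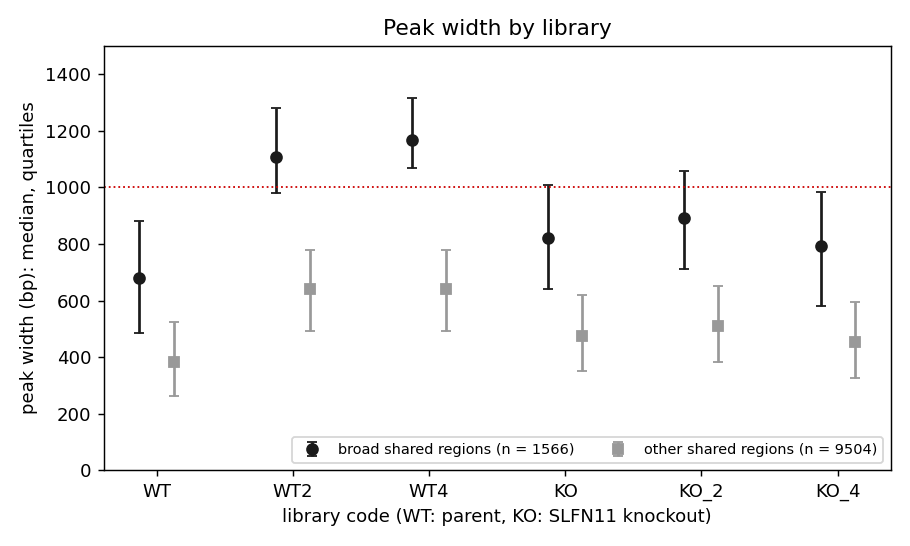
Peak width in each library, in bp, for the 1566 broad shared regions (black circles) and the 9504 other shared regions (grey squares). Points are medians, bars run from the first to the third quartile, and the dotted line marks the 1000 bp of the rule, which applies to WT4. Both sets are widest in WT2 and WT4 and narrowest in WT.

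The order of the lists was that of all shared chromatin. The narrower shared regions had median widths of 384 bp in WT, 639 bp in WT2, 642 bp in WT4, 476 bp in KO, 509.5 bp in KO_2 and 455 bp in KO_4. Divided within each list, the median of the broad regions was 1.77 times that of the others in WT, 1.73 in WT2, 1.82 in WT4, 1.72 in KO, 1.75 in KO_2 and 1.74 in KO_4. In the lists the rule did not use, this ratio therefore lay between 1.72 and 1.77, although the median widths ranged from 679 to 1106 bp. Broad regions also ranked high by width in lists where few reached 1000 bp. Of the 1566 widest shared regions of each list, the broad regions made up 1131 in WT2 (72.2%), 944 in KO_2 (60.3%), 861 in KO (55.0%), 840 in KO_4 (53.6%) and 779 in WT (49.7%).

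A peak of at least 1000 bp in WT4 was rarely so wide everywhere. At 373 regions (23.8%) WT4 alone reached 1000 bp, and at 465 more only WT4 and WT2 did. All 3 parent lists reached it at 209 regions and all 3 knockout lists at 190. All 6 lists did at 119 regions (7.60%), which are 1.07% of all shared regions. All lists but WT reached 1000 bp at 69 regions. The rule fixes WT4, so the count for the parent lists rests on WT and WT2 only. It cannot be compared like for like with the count for the knockout lists. Of these counts, only that of all 6 lists was set against all shared regions. Over the 6 lists the widest peak of a region was a median of 2.07 times the narrowest, against 2.00 at the other shared regions. The ratio was at least 5 at 110 broad regions (7.02%) and at 1.84% of the others. The ratio includes WT4, which the rule sets at 1000 bp or more at broad regions and below it at the others. Nothing is therefore read from these contrasts.

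Around the midpoint of the WT4 peak the other lists were present most often at the centre and fell away on both sides. At the midpoint itself a peak was present at 97.7% of the regions in WT2, 90.4% in KO_2, 86.8% in KO, 84.5% in KO_4 and 78.8% in WT. At 500 bp to the left, 75.5% of the regions still had a WT2 peak, 48.3% a KO_2 peak, 44.3% a KO peak, 42.3% a KO_4 peak and 32.1% a WT peak. At 500 bp to the right the shares were 74.4%, 48.9%, 43.4%, 39.97% and 31.3% in the same order. Left and right thus differed by at most a few percentage points in every list.

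**Figure D2:**
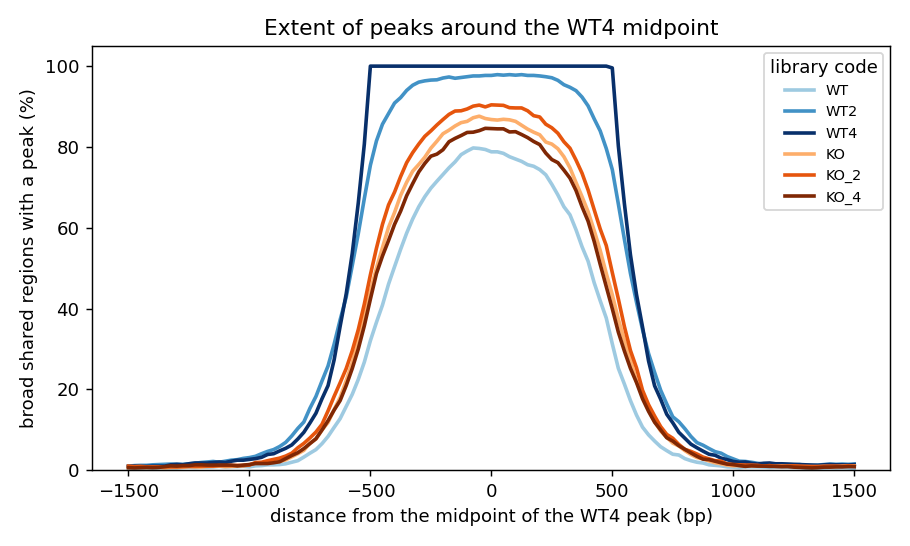
Share of the 1566 broad shared regions, in percent, that have a peak at each distance in bp from the midpoint of their WT4 peak, 1 line per library. WT4 is at 100% near 0 by construction. Of the other lists WT2 is present furthest out and WT least, on both sides.

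At some regions the other lists held several separate peaks in place of 1 broad peak. More than 1 peak lay in the region at 234 of the 1566 in KO_4 (14.9%), 199 in WT (12.7%), 194 in KO (12.4%), 179 in KO_2 (11.4%) and 108 in WT2 (6.90%). In WT4, where the rule asked for a wide peak, 9 regions were split (0.575%). Between 0.831% (WT2) and 1.74% (KO_4) of the other shared regions were split.

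Broad regions carried more summits than the other shared regions in every list. The mean number per region was 2.08 in WT, 3.07 in WT2, 2.95 in WT4, 2.39 in KO, 2.55 in KO_2 and 2.44 in KO_4. At the other shared regions the means ran from 1.28 in WT to 1.51 in WT2. At least 3 summits were listed at 989 broad regions in WT2 (63.2%) and at 447 in WT (28.5%). The knockout lists had 616 (KO), 727 (KO_2) and 666 (KO_4). Of the other shared regions, 9.87% had at least 3 in WT2 and 3.75% in WT, while 61.5% and 76.9% had a single summit. In WT4, where every broad region has a peak of at least 1000 bp, a single summit was listed at 194 (12.4%). A wide peak was thus not always a compound of summits. The number was 160 in WT2 (10.2%) and 529 in WT (33.8%), where 1121 and 224 regions reached 1000 bp. Per kilobase of peak the lists differed less. Broad regions had 2.84 summits in WT, 2.63 in WT2, 2.39 in WT4, 2.73 in KO, 2.74 in KO_2 and 2.89 in KO_4. The other shared regions had 3.12 in WT, 2.35 in WT2, 2.27 in WT4, 2.83 in KO, 2.77 in KO_2 and 2.98 in KO_4. Per kilobase, broad regions thus had more summits than the others only in WT2 and WT4. Neighbouring summits of a peak lay a median of 221 bp (KO_4) to 261 bp (WT4) apart, and 185 to 209 bp apart at the other shared regions.

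The highest summit moved about more in broad regions. Between any 2 lists it lay within 100 bp at 58.9 to 70.7% of the broad regions and at 76.0 to 85.5% of the other shared regions. All 6 lists placed it within 100 bp at 333 broad regions (21.3%) and at 40.6% of the others. It spread over more than 500 bp at 257 broad regions (16.4%) and at 1.74% of the narrower regions. The narrower regions leave less room for such moves, with median widths of 384 bp in WT to 642 bp in WT4. These contrasts are therefore tied to the width that the rule used and are descriptions only.

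Broad regions were not the most enriched ones. The fold enrichment of a peak is the authors' own value, the signal at the summit over local background. Its median over the broad regions was 6.25 in WT, 8.11 in WT2, 8.76 in WT4, 7.003 in KO, 7.22 in KO_2 and 6.93 in KO_4. Read within each list against the other shared regions, it was 0.891 times theirs in WT2 and 0.907 times in WT4. In the remaining lists the ratio was close to 1, with 1.04 in WT, 1.01 in KO, 0.997 in KO_2 and 1.03 in KO_4. The median broad region stood at the 37.4th percentile of shared regions by fold in WT2 and at the 54.3rd in WT. By contrast, broad regions stood at a median percentile of 85.7 to 91.5 by width in the 5 lists other than WT4.

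**Figure D3:**
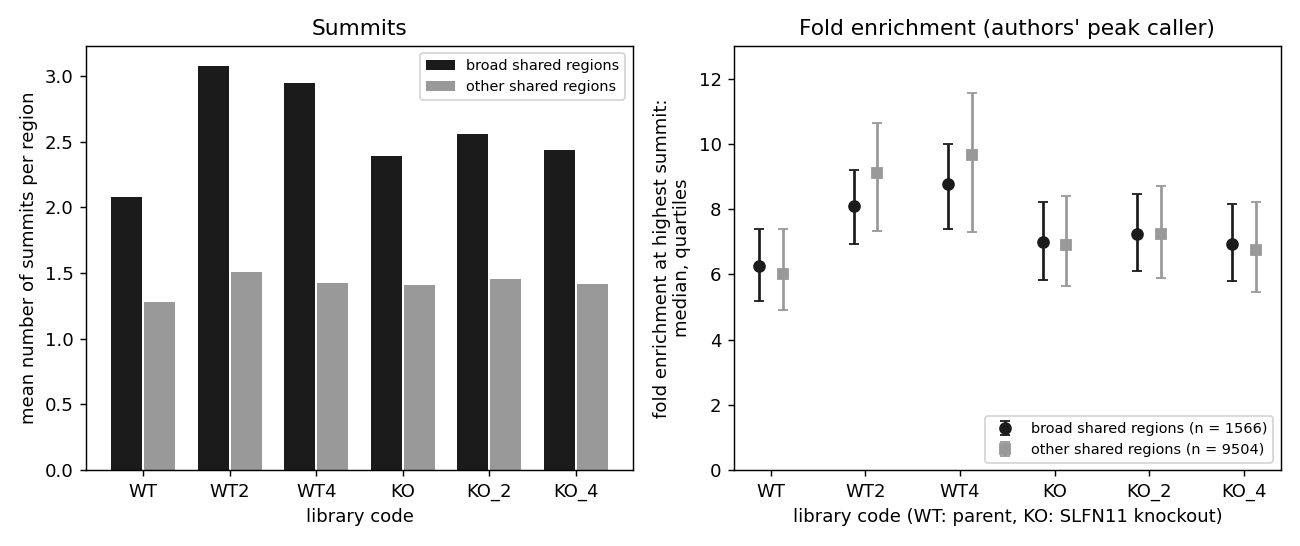
Left, mean number of summits per region in each library for broad shared regions (black) and other shared regions (grey). Right, fold enrichment at the highest summit as the authors' peak caller gave it, with medians as points and quartiles as bars. Summits are more numerous at broad regions in all 6 libraries, while fold is lower at broad regions in WT2 and WT4 and nearly equal to the others elsewhere.

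By width class in WT4, median fold was highest at 500 to 749 bp in WT2 and WT4 and at 750 to 999 bp in the other lists. It was lower again at the widest regions. In WT, KO, KO_2 and KO_4 the class of 1000 to 1249 bp still lay above that of 500 to 749 bp. These medians were 6.39 against 6.04 in WT, 7.25 against 7.02 in KO and 7.15 against 6.82 in KO_4. In WT2 the median was 6.33 at shared regions under 250 bp, 9.60 at those of 500 to 749 bp, 9.46 at 750 to 999 bp, 8.52 at 1000 to 1249 bp, 7.59 at 1250 to 1499 bp and 6.50 at 1500 bp or more. In KO_2 the same classes gave 5.68, 7.44, 7.79, 7.46, 7.07 and 6.37. In WT the decline was smaller, from 6.52 at 750 to 999 bp to 5.70 at 1500 bp or more. The widest class held 175 regions. Across the 1566 broad regions the rank correlation of a list's own width with its own fold was -0.24 in WT2 and -0.40 in WT4, but 0.36 in WT, 0.19 in KO, 0.08 in KO_2 and 0.24 in KO_4. These correlations are across regions of 1 library, which are not replicates, and in WT4 the width is cut off by the rule.

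**Figure D4:**
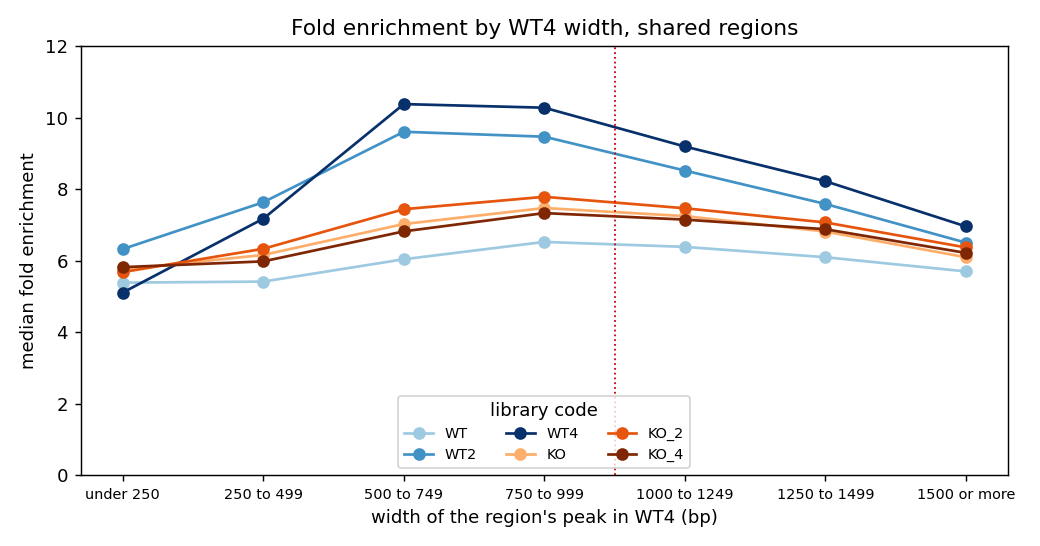
Median fold enrichment of the shared regions in each library against the width class of the region's peak in WT4, in bp; the dotted line separates broad shared regions, on the right. In WT2 and WT4 the medians are highest between 500 and 999 bp and lower in each wider class; in the 4 other libraries the curve is flatter.

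SLFN11 status was compared first by order, which does not depend on which list is which treatment. At 104 broad regions all 3 parent lists were wider than all 3 knockout lists (6.64%), and 6.4% of all shared regions showed the same order. At 8 the knockout lists were all wider (0.511%), against 1.36% of all shared regions. The share in the first direction was thus close to the background, and the rule itself used a parent list. With WT4 set aside, WT and WT2 were both wider than all knockout lists at 107 broad regions (6.83%, background 7.4%), and the reverse held at 18 (1.15%, background 3.06%). When widths were divided by each list's median over the narrower shared regions, a scaling added after the data were seen, the counts were 129 (8.24%, background 5.38%) and 78 (4.98%, background 6.15%), so the lopsided split of 104 to 8 did not hold on that scale.

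The parent-wider order was clearest at chr6:26055255-26056994, where the parent peaks measured 1326 bp in WT, 1514 bp in WT2 and 1715 bp in WT4. Each knockout list had broken the region into separate peaks, the widest of 500 bp in KO, 752 bp in KO_2 and 212 bp in KO_4. The narrowest parent peak was 1.76 times the widest knockout peak. Next came chr1:33814903-33816055, with 815, 884 and 1066 bp in WT, WT2 and WT4 and 561, 480 and 461 bp in KO, KO_2 and KO_4. At chr2:133011911-133012960 the parent lists each held a single peak of 1011 to 1050 bp, while all knockout lists held 2 peaks with the wider at 694 to 706 bp. That region had 4 summits in every list but WT2, which had 5, so its number of summits was nearly the same whether the peak was whole or split. The next 2 regions, chr1:45284832-45286084 and chr4:185395230-185396374, had ratios of 1.41 and 1.39.

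Regions in the other direction differed less. The rule itself limits such differences, since every broad region has a WT4 peak of at least 1000 bp. The largest was chr1:244012793-244014444, at 1352, 1039 and 1272 bp in WT, WT2 and WT4 and 1647, 1564 and 1511 bp in KO, KO_2 and KO_4, where the narrowest knockout peak was 1.12 times the widest parent peak. At chr9:141121824-141123523 and chr2:157198095-157199467 the ratio was 1.02 and 1.00, and WT4 was close to the knockout widths while WT and WT2 were far narrower. At the last of these, WT measured 514 bp and WT2 620 bp, against 1187 to 1358 bp in the knockout lists and 1182 bp in WT4. Then followed chr19:27731833-27733414 and chr7:61968543-61969790, both with a ratio of 1.00 and with nearly equal widths in every list. Only 3 of the 8 remained when regions whose widest peak was less than 1.25 times the narrowest were left out.

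List by list, the knockout was wider than the parent in 1 of the same-code pairs and narrower in the others. KO was at least 1.5-fold wider than WT at 387 broad regions (24.7%, background 26.6%) and narrower by that much at 48 (3.07%, background 4.16%). KO_2 was at least 1.5-fold narrower than WT2 at 400 (25.5%, background 23.0%) and wider at 11 (0.702%, background 2.04%). KO_4 was narrower than WT4 by that much at 782 (49.9%, background 37.3%) and wider at 0 (background 3.08%), a contrast that includes the list of the rule and from which nothing is read. These pairs are 4 h, DMSO and 2 h by the recorded samples, and DMSO, 2 h and 4 h by the title codes. Summit numbers had the same directions. KO had more summits than WT at 652 broad regions (41.6%, background 25.4%) and fewer at 341 (21.8%, background 13.4%). KO_2 had fewer than WT2 at 756 (48.3%, background 26.1%) and more at 339 (21.6%, background 19.3%). Both directions were listed more often than at shared regions at large, where most regions have 1 summit.

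Camptothecin in parent cells gave very different counts under the 2 readings of the labels. By the recorded samples, both camptothecin lists were wider than the DMSO list at 61 broad regions (3.90%, background 4.89%). By the title codes they were wider at 1486 (94.9%, background 86.8%), a count that includes WT4. On the scaled widths the readings gave 565 (36.1%, background 30.5%) and 683 (43.6%, background 34.9%). The pair without WT4 compares WT2 and WT. WT2 was at least 1.5-fold wider at 859 broad regions (54.9%, background 53.8%) and at least 1.5-fold narrower at 6 (0.383%, background 0.949%), with a median width ratio of 1.58 at broad regions and 1.56 at the other shared regions. It had more summits than WT at 973 broad regions (62.1%, background 33.2%) and fewer at 196 (12.5%, background 11.6%). WT2 against WT is 2 h of camptothecin against DMSO by the title codes, and DMSO against 4 h by the recorded samples. The gain in width of WT2 over WT was thus as frequent at broad regions as elsewhere. A gain in summits was listed more often at broad regions, which the rule chose for a wide peak. Of the other shared regions, 76.9% had a single summit in WT and 61.5% in WT2. The shares with a gain in summits are therefore not compared like for like, and nothing is read from their difference. WT4, the list of the rule, was at least 1.5-fold wider than WT at 997 (63.7%, background 53.4%) and narrower by that much at 0 (background 2.0%). Against WT2 it was wider at 116 (7.41%, background 4.23%) and narrower at 2 (0.128%, background 6.62%).

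In knockout cells the lists differed less. KO_2 was at least 1.5-fold wider than KO at 193 broad regions (12.3%, background 12.6%) and narrower at 82 (5.24%, background 6.45%). KO_4 was at least 1.5-fold wider than KO at 108 (6.90%, background 7.8%) and narrower at 197 (12.6%, background 13.8%). Against KO_2, KO_4 was narrower by that much at 257 (16.4%, background 17.1%) and wider at 52 (3.32%, background 5.12%). KO_2 had more summits than KO at 583 (37.2%, background 23.4%) and fewer at 434 (27.7%, background 19.0%). Both camptothecin lists were wider than the DMSO list at 307 broad regions by the recorded samples (19.6%, background 21.7%) and at 558 by the title codes (35.6%, background 33.5%). On the scaled widths these were 571 (36.5%, background 36.8%) and 518 (33.1%, background 31.6%). The shares by width were near those of shared regions at large. Whether the genotypes differ in their response was not tested, since each group is 1 library.

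The list WT stood apart at broad regions as elsewhere. It was narrower than all 5 other lists at 813 of them (51.9%, background 49.3%) and was the widest at 8 (0.511%, against 1.93% of all shared regions), a count that the rule lowers because WT4 is wide at every broad region. Leaving WT4 out of the comparison, it was narrowest at 814 (52.0%, background 50.6%). WT2 and WT4 were both wider than WT and all knockout lists at 1109 (70.8%, background 52.5%), a count that includes the list of the rule. WT2 was wider than WT and all knockout lists at 1194 (76.2%, background 65.8%). Over all shared regions, the rank correlation of WT2 widths was 0.83 with WT4 and 0.62 to 0.74 with the other lists. The WT2 count is therefore not independent of the rule, and nothing is read from either excess. Of the lists, WT also has the fewest entries and WT2 the most, and how much of these orders rests on depth was not tested.

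A small group kept its width in every list. The widest peak was less than 1.1 times the narrowest at 27 broad regions (1.72%, against 1.40% of the other shared regions). The shares were close, so such steady width was not particular to broad regions. This limit was set with the values in view. The extreme was chr6:58776269-58779516, the widest region of all in its narrowest list, with 3239, 3207 and 3212 bp in WT, WT2 and WT4 and 3239, 3237 and 3248 bp in KO, KO_2 and KO_4. It had 10 to 12 summits in each list and a fold of only 4.17 to 4.44. Next by that measure were chr21:9825469-9827552 (2059 to 2080 bp), chr18:18518365-18520336 (1949 to 1972 bp) and chr5:10032-11783, which began 10032 bp from the end of the chromosome and spanned 1736 to 1743 bp.

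Fold also differed little between lists at most of these sites, though the median ratio of its highest to its lowest value, 1.16, was above the limit set for width. The highest fold over the lists was less than 1.2 times the lowest at 18 of the 27, against 90 of all 1566 broad regions (5.75%). This count was not made over all shared regions. The median fold of the 18 lay between 10.1 and 10.4 in every list, whereas that of all broad regions ranged from 6.25 to 8.76. At chr19:27731833-27733414 the fold was 22.8 in WT, 22.4 in WT2, 23.05 in WT4, 22.5 in KO, 21.9 in KO_2 and 22.7 in KO_4, the highest of any broad region in its lowest list. At chr1:121484072-121485441 it ran from 20.2 to 21.0 over 1363 to 1368 bp, with 3 summits in each list. At chr4:68265198-68266658 it ran from 18.7 to 20.9 over 1423 to 1457 bp, and at chr11:3675023-3676040 from 18.3 to 21.4 over 993 to 1014 bp. Steady regions could also be weakly enriched, such as chr16:46391024-46392360 at 3.35 to 3.82-fold and 1327 to 1337 bp. Several lay close together, and chr2:92290485-92325929 held 4 broad regions within 35.4 kb, 3 of them among the 27. Regions of repeated sequence were not removed, and whether these sites are open chromatin was not tested.

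The other 9 of the 27 kept their width while their fold differed. The clearest was chr17:41399888-41401187, with widths of 1230 to 1280 bp but a fold of 6.001 in WT, 11.3 in WT2, 11.46 in WT4, 7.64 in KO, 7.25 in KO_2 and 6.93 in KO_4. Ranked by the highest fold over the 6 lists, the lowest regions were chrX:58572352-58574060, at 2.80 to 3.28-fold, and chrX:58568210-58569962, at 3.23 to 3.76-fold. The first of these also had the lowest ratio of WT4 to WT, with 1324 bp in WT4 and 1667 bp in WT.

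Most broad regions stood alone and some came in runs. Another broad region lay within 50 kb of 211 of them (13.5%). Joined at that distance, they formed 1355 single regions, 72 pairs, 11 runs of 3, 4 runs of 4, 1 run of 6 and 1 run of 12. No such counts were made for the other shared regions, so whether broad regions lie closer together than those was not tested. By chromosome, broad regions made up between 9.23% of shared regions on chromosome 22 (18 of 195, 5.92 to 14.1%) and 18.9% on chromosome 6 (122 of 646, 16.1 to 22.1%), followed by 17.1% on chromosome 17 (84 of 492).

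The longest run was on chromosome 6, positions 26020536 to 26323451, with 12 broad regions in 303 kb. The short arm of chromosome 6 is known for the largest human cluster of histone genes, whose promoters are used in S phase. Whether these regions fall at such genes was not examined, since no annotation of hg19 was used. Their median width was 655 bp in WT, 1456 bp in WT2, 1550.5 bp in WT4, 570 bp in KO, 701 bp in KO_2 and 550 bp in KO_4. WT2 and WT4, the list of the rule, were both wider than the 4 other lists at 12 of 12. That order held at 70.8% of all broad regions and at 52.5% of all shared regions. Together the 12 regions held 59 summits in WT2 and 56 in WT4 but 24 in WT, 26 in KO, 28 in KO_2 and 25 in KO_4. Fold did not follow, with a median of 5.16 in WT, 6.18 in WT2, 5.65 in WT4, 5.45 in KO, 6.41 in KO_2 and 5.81 in KO_4. A second run on the same chromosome, positions 27775243 to 27806856, had 4 regions with median widths of 642.5 bp in WT, 1269 bp in WT2, 1142 bp in WT4, 749.5 bp in KO, 656.5 bp in KO_2 and 570.5 bp in KO_4.

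A run of 6 broad regions on chromosome 1, positions 149783075 to 149860202, also had its widest peaks in WT2 and WT4. Its median widths were 693.5 bp in WT, 1981 bp in WT2, 1793 bp in WT4, 766.5 bp in KO, 696.5 bp in KO_2 and 586.5 bp in KO_4. At chr1:149811827-149814738 the peak was 2912 bp in WT2 and 2802 bp in WT4. It was 725 bp in WT, 388 bp in KO, 597 bp in KO_2 and 492 bp in KO_4, which each held 2 or 3 separate peaks there. The region had 8 summits in WT2 and 9 in WT4 against 3 to 5 in the others, while its fold was low in every list, from 3.68 in WT2 to 5.17 in KO_2. At chr1:149822302-149824849 the widths were 2518 and 2548 bp in WT2 and WT4, 728 bp in WT and 491 to 608 bp in the knockout lists. Both WT2 and WT4 exceeded the other 4 lists at 6 of 6 regions of this run, at 4 of 4 of the second run on chromosome 6 and at 4 of 4 of a run on chromosome 11, positions 62572027 to 62649375. They did so at 2 of 4 in a run on chromosome 17, positions 41392701 to 41445794, and at 1 of 4 in the run on chromosome 2. These runs were singled out after their values were seen.

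**Figure D5:**
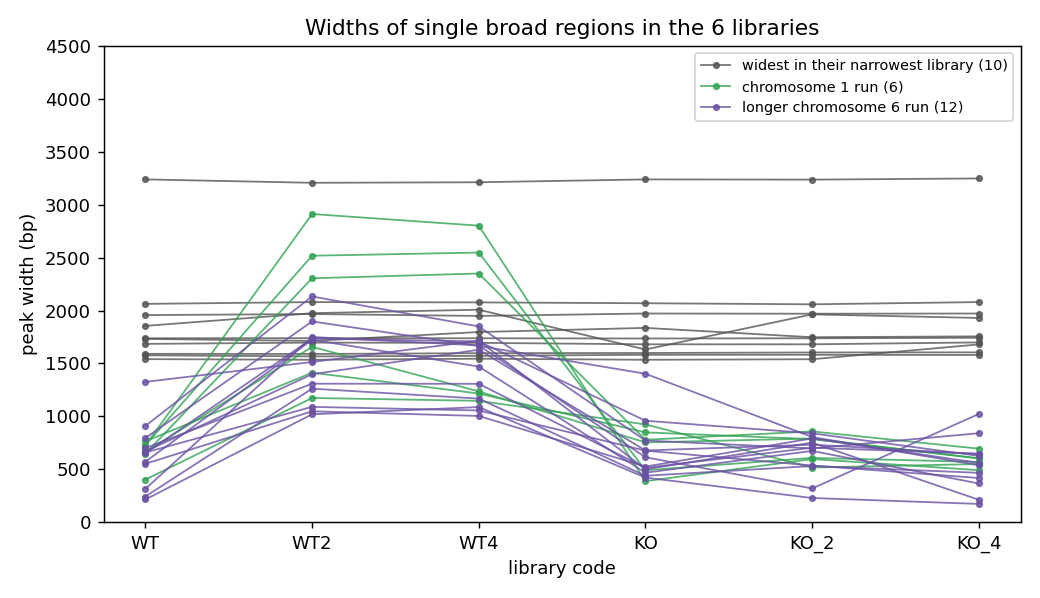
Peak width in bp of single broad regions in the 6 libraries, 1 line per region: the 10 regions widest in their narrowest library (grey), the run of 6 on chromosome 1 (green) and the longer run of 12 on chromosome 6 (purple). Grey lines vary by at most 1.23 times, whereas green and purple lines rise in WT2 and WT4 at every region.

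The largest ratios of WT4 to WT were found where WT kept only a short peak. At chr12:80083456-80085276 the widest peak was 151 bp in WT, 1601 bp in WT2, 1539 bp in WT4, 1014 bp in KO, 1184 bp in KO_2 and 490 bp in KO_4. At chr17:4851279-4853245 the widths were 208, 1465 and 1945 bp in WT, WT2 and WT4 and 434, 324 and 742 bp in KO, KO_2 and KO_4. At chr11:118661208-118663041 the order crossed genotypes, with 192 bp in WT and 396 bp in KO_4 but 1456 bp in WT2, 1614 bp in WT4, 1568 bp in KO and 1015 bp in KO_2. These regions were chosen for their ratio of WT4 to WT. Nothing is therefore read from them on differences within a genotype against those between genotypes. WT4 was narrower than WT at 32 broad regions (2.04%) and at 9.59% of all shared regions, but the rule set the WT4 width, so nothing is read from this.

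At the edge of the rule, the widths just inside and just outside overlapped in the other parent lists. The 5 just inside had a WT4 peak of 1000 bp, with widths of 166 to 969 bp in WT and 801 to 1248 bp in WT2. The 5 just outside had a WT4 peak of 999 bp, with 305 to 983 bp in WT and 812 to 1068 bp in WT2. Of the regions past the width limit, few lacked a peak elsewhere, and 126 of the 1692 with such a peak in WT4 were not shared by all lists.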

How the data were processed

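ATAC-seq peak lists of 6 libraries were used, 1 per group. The submitters' processing notes name MACS2 2.1.2 as well as BWA 0.7.17, Picard 2.9.2, SAMtools 1.8, Trimmomatic 0.39 and Trim Galore 0.6.2, with build hg19. The sources used here do not say how reads were shifted, extended or deduplicated, which moves peak edges. Each deposited entry gives a position, a summit, a score (10 times the -log10 q, truncated, in all but 16 entries), a fold enrichment ratio, and the p and q as -log10. These values deposited by the authors end at a q of 0.01.

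Entries outside chromosomes 1 to 22 and X (0.445 to 0.728% of a list) were left out. Within each list overlapping entries became 1 peak, and peaks of all lists were joined into union regions. Width is that of the widest peak of a list in a region, summits are its entries, and fold is the highest. Coordinates are hg19, counted from 1. Merging was checked on simulated lists. Values were computed with pandas 2.3.3 and Wilson intervals with statsmodels 0.14.6. A width change means at least 1.5-fold, and background is the same count over all 11070 shared regions. Named regions are the extremes by width over lists, summits, fold, genotype ratio, WT4 to WT ratio and the rule's edge; the text gives some of each. The regions, lists and rules were chosen with earlier results of these data known. The alternatives are given with the closing observations.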

Additional observations from a re-analysis of the deposited data

Results flagged for a closer look

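The direction of the difference between camptothecin and DMSO was opposite in parent and knockout cells for some values over the 1566 broad regions. Each side is 1 library minus 1 library, and the difference between the genotypes was not tested. By the recorded samples, at 2 h the median width differed from DMSO by 61 bp in parent and by -100.5 bp in knockout cells. The median fold then differed by 0.648 in parent and by -0.29 in knockout cells. By the title codes, at 4 h the median width differed by 488 bp in parent and by -28.5 bp in knockout cells, and the median fold by 2.51 and -0.0698. All of these parent differences involve WT4, the list whose width chose the regions. At the other time of each reading both genotypes moved the same way.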

How the results depend on the processing

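With 17 settings tried, 62 of the main values stayed and 67 moved, and of the medians and means per list 121 stayed and 95 moved. Counts and mean summits stayed if within 1.5 times of the reported value, shares and medians if within its interval. No paired analysis was possible because each group has 1 library and the labels carry no replicate numbers. The main values are, in this order, the number of broad regions (1566), those wider in all parent lists (104), in all knockout lists (8) and in both camptothecin lists of parent (61) and knockout cells (307), and the shares at least 1.5-fold wider in WT2 than WT (54.9%), in KO_2 than KO (12.3%) and in KO than WT (24.7%). A width of 750 bp gave 4424 regions, 306 parent-wider, 15 knockout-wider, 149 and 916 by camptothecin, and 10.7% for KO_2. At 1500 bp there were 175, 12, 3, 7 and 38, with 65.1% for WT2, 17.7% for KO_2 and 40 regions of 1000 bp in all lists, against 119. Choosing by WT gave 252 regions, 34 parent-wider, 56 by camptothecin in knockout cells, and shares of 4.76%, 6.75% and 1.19%. Choosing by WT2 gave 26 by camptothecin in parent cells and 60.6% for WT2. Choosing by KO gave 477 regions, 7 parent-wider, 32 and 146 by camptothecin, and shares of 36.3%, 0.629% and 31.9%. Choosing by KO_2 gave 612, 7, 34 and 49, with 42.6% for WT2 and 18.1% for KO_2. Choosing by KO_4 gave 418, 8, 29 and 130, with 35.4%, 7.89% and 17.9%. The mean width over the lists gave 523, 27, 33 and 114, with 37.3%, 6.31% and 17.8%. Parent-wider regions thus fell to 7 or 8 where a knockout list made the choice, and knockout-wider regions then numbered 12. The parent-wider count therefore depends on which list chooses the regions.

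A -log10 q of at least 5 moved the shares to 50.1%, 10.5% and 20.9%, and a 2-fold limit to 32.7%, 4.09% and 12.2%. The title codes gave 1486 and 558 by camptothecin. Of the alternatives added after seeing the data, scaled widths gave 78 knockout-wider regions, 565 and 571 by camptothecin, and shares of 20.1%, 9.26% and 14.5%. The summed width of all peaks gave 9.26% for KO_2. Another left out the 93 regions whose widest peak was less than 1.25 times the narrowest. It gave 3 knockout-wider regions, 57 of 1000 bp in all lists and 58.3% for WT2. The cause of these changes was not tested. Under the alternative choices of regions that gave medians, WT had the lowest median width except in the choice by WT itself, and WT2 and WT4 had the highest. Depth was unknown, and it limits every width between lists.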
